A study of Mus musculus with 14 samples.

Results

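Expression of 10 genes of fatty acid synthesis, elongation and desaturation was described in hearts of old and young mice. The genes were Acly, Me1, Acaca, Fasn, Elovl3, Elovl6, Scd1, Scd2, Srebf1 and Thrsp, and each was found once by symbol among the 49315 genes of the count table. They were chosen by their CPM (read counts scaled to sequencing depth) at 68 against 12 weeks, which was already known. That difference is thus given here as a description. Any count of them called at an adjusted p is printed beside the share of all genes called at that threshold. No count of them supports anything. Hearts came from wild-type male C57BL/6 mice on standard chow, aged 68 weeks (4 RNA-seq libraries) or 12 weeks (4 libraries). The labels name no transgene, deletion or drug in either group. Whether each library was made from its own mouse is not in the labels, so errors measure the spread between libraries, which may be technical. Regions marked by H3K27me3, a histone mark of Polycomb silencing, were also listed for each age from CUT&RUN, an assay that cuts and releases antibody-bound DNA, with 2 libraries and 1 input per age.

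Fatty acids are built in the cytosol from acetyl-CoA. ATP-citrate lyase (Acly) makes that acetyl-CoA from citrate, and malic enzyme (Me1) supplies NADPH. Acetyl-CoA carboxylase alpha (Acaca) forms malonyl-CoA, and fatty acid synthase (Fasn) joins the units into palmitate. Elovl6 lengthens palmitate to stearate, Elovl3 makes longer chains and is prominent in brown fat, and the stearoyl-CoA desaturases Scd1 and Scd2 add a double bond. Srebf1 encodes the transcription factor SREBP-1, which activates many of these genes, and Thrsp encodes a lipogenic factor abundant in fat and liver. Heart muscle mainly burns fatty acids, and fat cells, which lie around the heart and its vessels, are among the tissues that make them.

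Promoter windows are shown for genes that stood lower together at 68 weeks. RefSeq windows on GRCm38.p6, from 250 bases before to 50 after an annotated start, matched 7 of the 10 genes, in 10 windows, and are printed 5′ to 3′ on the gene's strand. Elovl3, Scd1 and Scd2 had no entry. Capitals mark any match on either strand to CCAAT, to the GC box GGGCGG, to the E-box CACGTG or to TCACNCCAC, a form of the sterol response element bound by SREBP. Overlapping matches run together.
Fasn, chr11:120824498-120824797, minus strand: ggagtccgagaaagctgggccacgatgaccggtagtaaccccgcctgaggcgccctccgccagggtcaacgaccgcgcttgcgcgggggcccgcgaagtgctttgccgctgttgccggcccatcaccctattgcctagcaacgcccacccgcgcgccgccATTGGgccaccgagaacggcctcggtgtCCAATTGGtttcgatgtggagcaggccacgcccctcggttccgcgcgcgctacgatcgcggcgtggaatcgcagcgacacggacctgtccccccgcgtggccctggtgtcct
Thrsp, chr7:97417501-97417800, minus strand: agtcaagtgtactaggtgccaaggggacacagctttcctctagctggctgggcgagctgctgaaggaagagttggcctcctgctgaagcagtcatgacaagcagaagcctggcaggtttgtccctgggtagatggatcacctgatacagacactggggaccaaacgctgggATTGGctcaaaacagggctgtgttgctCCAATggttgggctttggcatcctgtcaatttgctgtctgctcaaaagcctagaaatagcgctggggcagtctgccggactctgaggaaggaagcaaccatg
Srebf1, chr11:60210422-60210721, minus strand, 1 of its 3 windows: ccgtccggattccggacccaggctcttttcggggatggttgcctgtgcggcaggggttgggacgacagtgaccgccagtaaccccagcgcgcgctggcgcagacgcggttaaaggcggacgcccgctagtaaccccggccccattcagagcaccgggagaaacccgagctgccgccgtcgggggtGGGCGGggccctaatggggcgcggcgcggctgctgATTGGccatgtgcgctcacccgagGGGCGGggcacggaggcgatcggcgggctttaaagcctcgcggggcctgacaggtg
Elovl6, chr3:129532136-129532435, plus strand: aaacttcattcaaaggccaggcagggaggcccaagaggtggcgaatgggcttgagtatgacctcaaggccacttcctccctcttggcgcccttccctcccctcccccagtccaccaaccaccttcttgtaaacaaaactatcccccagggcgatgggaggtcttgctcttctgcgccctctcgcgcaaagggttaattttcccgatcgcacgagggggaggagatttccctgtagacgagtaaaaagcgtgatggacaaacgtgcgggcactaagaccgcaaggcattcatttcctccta
A CCAAT match stood in 6 of the 10 windows, of Fasn, Thrsp, Srebf1, Me1 and Acly, and in 37.4% of all 32851 windows. A GC box stood in 4 of the 10, of Srebf1, Me1 and Acly, against 35.7% of all windows. Neither TCACNCCAC nor CACGTG was found in the 10 windows, and they stood in 1.24% and 7.15% of all. The windows of Elovl6 and Acaca held none of the 4 motifs. A match is a description of letters, not of a binding site. Only 1 form of the sterol response element was searched, so a missing match does not mean a missing element.

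The libraries held 28842059 to 34599121 counts at 68 weeks and 23599296 to 31662601 at 12 weeks. The heart label was checked on cardiomyocyte markers such as Myh6 and Tnnt2, which were abundant in every library, at 62200 to 68200 CPM in sum at 68 weeks and 55900 to 64400 at 12 weeks. CPM here are scaled to the normalized library size, and ± gives the SD of 4 libraries unless it is called SE. Mitochondrial genes took 10.1% to 12.1% of counts at 68 weeks and 7.41% to 11.5% at 12 weeks, and their part in the results was not tested. Transcripts of other tissues differed between libraries. Airway and alveolar epithelium markers together reached 1020 CPM in 68-week replicate 3 and 1.46 to 1.95 CPM in the other 68-week libraries, against 1590, 897 and 536 CPM in 12-week replicates 1 to 3 and 29.9 CPM in replicate 4. Markers of brown fat were highest in 12-week replicate 4, at 503 CPM in sum, against 121 to 190 CPM in the other 12-week libraries.

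In the test of 68 against 12 weeks, edgeR's quasi-likelihood test at a Benjamini-Hochberg adjusted p of 0.05, 7 of the 10 genes were called lower at 68 weeks and 0 higher (9 and 0 at an unadjusted p under 0.05, and 8 and 0 by DESeq2). Over all 15947 genes tested, edgeR called 1.22% lower and 1.61% higher, and DESeq2 2.97% and 3.63%. These shares, like all those below, are at the adjusted threshold. The share of all genes at an unadjusted p under 0.05 is not given, so counts at that level have no background beside them. With library size alone as the normalization, edgeR called 248 genes lower and 176 higher, against 195 and 256 here, and the same number of the 10. The choice of genes used this contrast, so nothing is read from the count. It depended on single libraries. Without 68-week replicates 1 to 4 in turn, 0, 0, 6 and 1 of the 10 were called lower, beside 0.506%, 0.417%, 0.957% and 0.321% of all genes. Without 12-week replicates 1 to 4 in turn, the numbers were 0, 3, 3 and 1, beside 0.343%, 0.5%, 0.456% and 0.766% of all genes. In 8 of the 10, every 68-week library lay below every 12-week library, as it did in 5.86% of all genes tested. Taken as a sum, the 10 genes held 484, 522, 627 and 394 CPM in 68-week replicates 1 to 4, against 1440, 789, 799 and 1550 CPM in 12-week replicates 1 to 4. The groups lay apart in that sum, and 12-week replicates 1 and 4 were well above replicates 2 and 3. Gene positions below are on mm10 by label, as the count tables give them.

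Acly and Me1, which supply acetyl-CoA and NADPH, were not called different between the ages. Acly (ENSMUSG00000020917, chromosome 11, 100476353 to 100528000, minus strand) had 47.5, 52.6, 48.8 and 40.5 CPM in the 68-week libraries, in the order of replicates 1 to 4 as in all such lists, against 76.8, 50.3, 54.9 and 62.6 CPM in the 12-week libraries. The groups overlapped, with 12-week replicate 1 the highest library, and the log2 fold change, 68 minus 12 weeks throughout, was -0.37 ± 0.13 (SE). Me1 (ENSMUSG00000032418, chromosome 9, 86581371 to 86695953, minus strand) stood at 176, 152, 146 and 144 CPM at 68 weeks, against 147, 145, 145 and 168 CPM at 12 weeks. Its values spanned nearly the same range at both ages (log2 fold change 0.03 ± 0.077, SE), and the sign turned with library size alone as the normalization (-0.02). Acly and Me1 were the only members whose groups overlapped.

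The 2 enzymes that make the carbon chain were lower at 68 weeks and uneven at 12 weeks. Acaca (ENSMUSG00000020532, chromosome 11, 84129672 to 84401651, plus strand) stood at 25.5, 32.9, 37.8 and 24.0 CPM at 68 weeks, against 97.9, 46.2, 51.6 and 92.1 CPM at 12 weeks (log2 fold change -1.26 ± 0.26, SE). Fasn (ENSMUSG00000025153, chromosome 11, 120805846 to 120824547, minus strand) stood at 62.0, 79.6, 103 and 49.8 CPM at 68 weeks, against 456, 141, 163 and 337 CPM at 12 weeks (log2 fold change -1.90 ± 0.38, SE). In both genes 12-week replicates 1 and 4 were high and replicates 2 and 3 were nearer to the 68-week libraries. The highest 68-week library in both was replicate 3, the one with airway transcripts. Replicate 3 was also the 68-week library highest in the brown fat marker Ucp1 (55.0 CPM). The fat marker Adipoq was highest in 68-week replicate 2 (10.4 CPM). Acacb, the carboxylase at the mitochondrial surface of muscle that limits fatty acid entry for oxidation, was chosen for comparison after its values were seen. It averaged 669 ± 64.1 CPM at 68 weeks and 718 ± 31.0 CPM at 12 weeks (log2 fold change -0.10 ± 0.072, SE, adjusted p = 0.477, edgeR).

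Elongases had the largest log2 differences of the 10 genes. Elovl6 (ENSMUSG00000041220, chromosome 3, 129532355 to 129638495, plus strand) stood at 2.45, 3.42, 3.80 and 1.25 CPM at 68 weeks, against 16.6, 7.04, 8.31 and 34.2 CPM at 12 weeks (log2 fold change -2.61 ± 0.53, SE). The groups did not overlap, and 12-week replicate 4 held the most. Elovl3 (ENSMUSG00000038754, chromosome 19, 46131897 to 46135307, plus strand) was barely detected: its counts were 3, 3, 13 and 0 reads at 68 weeks, against 28, 27, 36 and 120 reads at 12 weeks. That gave 0.0993, 0.108, 0.419 and 0 CPM at 68 weeks, against 0.825, 0.970, 1.55 and 4.33 CPM at 12 weeks (log2 fold change -3.58 ± 0.81, SE). That fitted difference was -4.76 without 68-week replicate 3 and -2.79 without 12-week replicate 4, the ends of its range with single libraries left out. Elovl3 passed the filter on low counts through its 12-week libraries, where it was high, so nothing is read from its call. That call lay at the threshold (adjusted p = 0.0499, edgeR). It was lost with RLE size factors, another normalization (adjusted p = 0.0504, edgeR). The order of the 12-week libraries differed between the elongases, since replicate 1 was second highest for Elovl6 and lowest for Elovl3.

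The desaturases differed from each other. Scd1 (ENSMUSG00000037071) stood at 50.6, 79.0, 144 and 35.9 CPM at 68 weeks, against 441, 227, 205 and 638 CPM at 12 weeks (log2 fold change -2.29 ± 0.49, SE). Scd2 (ENSMUSG00000025203) stood at 39.6, 30.4, 49.5 and 34.8 CPM at 68 weeks, against 54.8, 53.6, 52.3 and 62.6 CPM at 12 weeks (log2 fold change -0.53 ± 0.13, SE). The groups overlapped in neither Scd1 nor Scd2. Beside Acly and Me1, Scd2 was the other member not called by edgeR (adjusted p = 0.0673), though DESeq2 called it lower (adjusted p = 0.00288). At 12 weeks Scd1 averaged 378 ± 204 CPM and Scd2 55.8 ± 4.63 CPM, so the spread between libraries was wide in Scd1 and narrow in Scd2. The Scd genes are close relatives near each other on chromosome 19 (Scd1 at 44394451 to 44407709, minus strand, and Scd2 at 44293676 to 44306864, plus strand). Another of them, Scd4, lies between Scd1 and Scd2. How reads matching more than 1 Scd gene were counted is not stated, and the values of Scd1 and Scd2 are uncertain to that extent.

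Of the regulators, Srebf1 (ENSMUSG00000020538, chromosome 11, 60199089 to 60222581, minus strand) stood at 62.3, 63.3, 69.1 and 45.9 CPM at 68 weeks, against 95.4, 83.3, 82.5 and 103 CPM at 12 weeks (log2 fold change -0.60 ± 0.12, SE). Thrsp (ENSMUSG00000035686, chromosome 7, 97412938 to 97417730, minus strand) stood at 17.7, 28.3, 25.7 and 17.8 CPM at 68 weeks, against 57.0, 34.5, 34.4 and 48.4 CPM at 12 weeks (log2 fold change -0.97 ± 0.21, SE). Both genes were lower in each 68-week library than in any 12-week library, and 12-week replicates 1 and 4 were again the 2 highest.

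**Figure D1:**
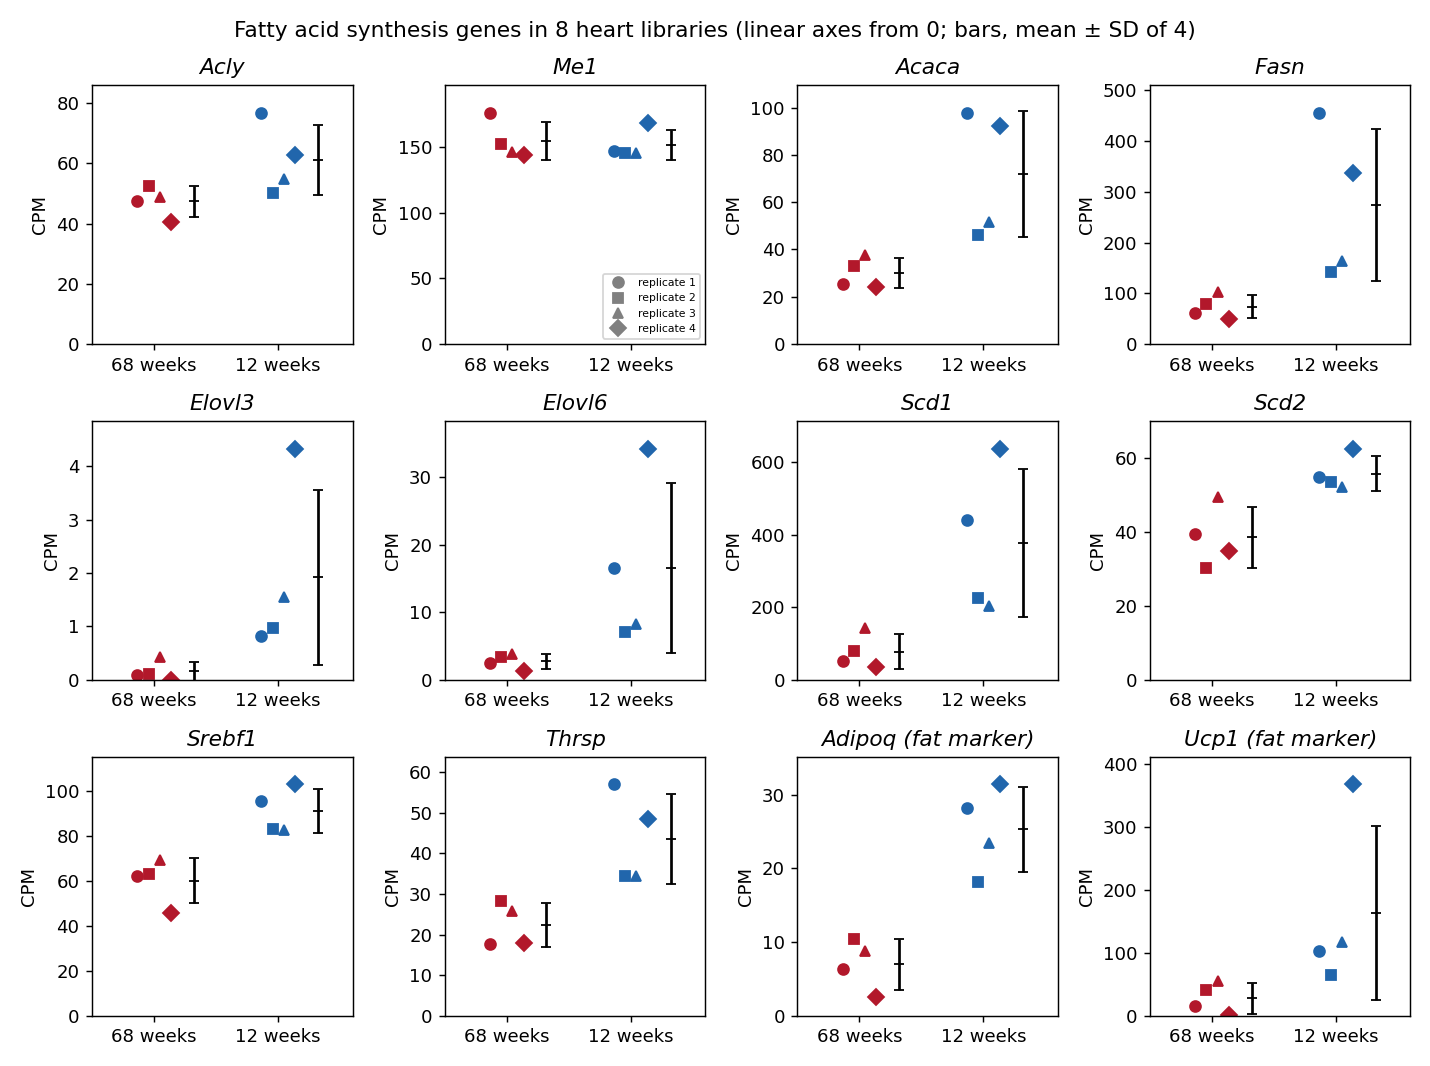
Depth-scaled counts (CPM, linear axes from 0) of the 10 genes and of the fat markers Adipoq and Ucp1 in each heart library, 68 weeks (red) left of 12 weeks (blue). Marker shape gives the replicate and black bars the mean ± SD of 4 libraries. In Fasn, 12-week replicates 1 and 4 stood at 456 and 337 CPM against at most 103 CPM at 68 weeks, while Me1 spanned 144 to 176 CPM at 68 weeks and 145 to 168 CPM at 12 weeks.

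Scaled for exon length, the order of the genes changed with age. In TPM (counts scaled by the exon lengths of the deposited tables and by depth), Me1 led at 68 weeks with 88.9 ± 8.87 TPM. Scd1 followed at 35.7 ± 22.9 TPM, then Srebf1 at 23.7 ± 4.28, Thrsp at 22.6 ± 5.48, Acly at 19.9 ± 2.15, Scd2 at 15.7 ± 3.76 and Fasn at 14.9 ± 4.99 TPM. Acaca (3.91 ± 0.902 TPM), Elovl6 (0.944 ± 0.403) and Elovl3 (0.237 ± 0.28) stood last. At 68 weeks the ranges of neighbours in that order did not overlap between Me1 and Scd1, Fasn and Acaca, or Acaca and Elovl6, and overlapped in all other pairs. At 12 weeks Scd1 led with 187 ± 102 TPM, followed by Me1 at 93.1 ± 9.5, Fasn at 61.1 ± 38.3, Thrsp at 47.9 ± 16.2, Srebf1 at 38.4 ± 6.16, Acly at 27.8 ± 7.73 and Scd2 at 24.3 ± 2.81 TPM. Acaca (10.2 ± 4.42 TPM), Elovl6 (6.11 ± 4.48) and Elovl3 (2.97 ± 2.46) again stood last, and Scd2 and Acaca were the only neighbours with separate ranges.

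Several markers of fat cells were also lower at 68 weeks. Adipoq, which encodes the fat cell hormone adiponectin, stood at 6.29, 10.4, 8.80 and 2.47 CPM at 68 weeks, against 28.2, 18.2, 23.4 and 31.4 CPM at 12 weeks (log2 fold change -1.86 ± 0.35, SE). Ucp1, the uncoupling protein of brown fat, stood at 14.7, 40.5, 55.0 and 0.892 CPM at 68 weeks, against 103, 64.2, 117 and 368 CPM at 12 weeks (log2 fold change -2.56 ± 0.89, SE, adjusted p = 0.162, edgeR). For both markers the groups did not overlap, 68-week replicate 4 was lowest and 12-week replicate 4 was highest, as for Elovl3, Elovl6, Scd1 and Srebf1. In bulk tissue, fewer cells of a type and less RNA per cell cannot be told apart.

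The 12 white fat cell markers had a median log2 fold change of -1.66, against -0.008 over all genes tested. DESeq2 called 9 of the 12 lower. By edgeR 5 were lower (9 at an unadjusted p under 0.05). These were Adipoq, the complement factor gene Cfd (-1.71 ± 0.32, SE), the lipid droplet gene Cidec (-1.95 ± 0.37), the fat cell differentiation gene Adig (-1.59 ± 0.32) and the carbonic anhydrase gene Car3 (-1.80 ± 0.39), with adjusted p from 0.0287 to 0.0455 by edgeR. None of the 5 calls held in every set of 7 libraries: 0 of the 12 genes were called without 68-week replicate 1 or 12-week replicate 1 or 3, 5 without 68-week replicate 3, and 2 without each other library. The list summed to 337 to 556 CPM at 68 weeks and 708 to 1030 CPM at 12 weeks, and none of it was at 0 in any library. Heart muscle also expresses some of it, such as Plin4. Fitted log2 fold changes were below 0 in 11 of the 12 genes, and Lep went the other way (0.85 ± 0.48, SE, adjusted p = 0.369, edgeR). The ages overlapped in Lep, Retn, Pparg (-0.29) and Plin4 (-0.02). Of 7 brown fat markers, 6 were tested and Dio2, which activates thyroid hormone, was lower (-1.20 ± 0.19, SE, adjusted p = 0.0140, edgeR), also with any single library left out. At an unadjusted p under 0.05, 5 of the 6 were lower by edgeR, and the list median was -2.01. The Dio2 call was lost with the Adipoq level (-0.55), the Ucp1 level (-0.81) or the airway level (-1.08) in the model. That list summed to 32.5 to 102 CPM at 68 weeks and 121 to 503 CPM at 12 weeks, with Zic1 and Slc27a2 at 0 in some libraries. Of the 32.5 CPM, found in 68-week replicate 4, Cidea held 25.9 CPM and Ucp1 0.892 CPM. Cidea stood at 25.9 to 34.0 CPM in all 68-week libraries. Of 11 airway and alveolar markers tested, 0 were called by edgeR or DESeq2 (4 lower and 0 higher at an unadjusted p under 0.05 by edgeR), with Scgb1a1, Scgb3a2, Foxj1, Sftpa1, Sftpc and Sftpd at 0 in some libraries, and 8 were called lower without 68-week replicate 3. Of 6 Schwann cell markers, 0 were called by edgeR and 2 lower by DESeq2 (5 lower at an unadjusted p under 0.05 by edgeR), and they summed to 21.9 to 31.7 CPM at 68 weeks and 29.7 to 46.1 CPM at 12 weeks. Of 8 cardiomyocyte markers, 0 were called by edgeR and 1 higher by DESeq2 (3 higher at an unadjusted p under 0.05 by edgeR).

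Set against Adipoq library by library, the genes fell into different patterns. Scd1 reads numbered 7.58 to 16.3 per Adipoq read at 68 weeks and 8.76 to 20.3 at 12 weeks. For Fasn the ratio was 7.64 to 20.2 at 68 weeks and 6.96 to 16.2 at 12 weeks, and for Elovl6 0.329 to 0.506 at 68 weeks and 0.355 to 1.09 at 12 weeks. The ages overlapped in these ratios. Srebf1 had 6.08 to 18.6 reads per Adipoq read at 68 weeks and 3.26 to 4.59 at 12 weeks, Thrsp 2.72 to 7.22 and 1.47 to 2.02, Acly 5.05 to 16.4 and 1.99 to 2.77, and Me1 14.6 to 58.4 and 5.21 to 7.97, in the same order of ages. In those 4 genes every 68-week ratio was above every 12-week ratio, as in 91.4% of all genes tested, since Adipoq itself did not overlap between the ages and a level gene such as Me1 then separates. In Acaca, Scd2 and Elovl3 the ages overlapped. Against Ucp1, every 68-week ratio lay above every 12-week ratio for Acly (0.887 to 45.4 at 68 weeks and 0.170 to 0.784 at 12 weeks) and for Me1, as in 78.0% of all genes tested. The ratio of Elovl3 to Ucp1 was lower in every 68-week library (0 to 0.00762 at 68 weeks and 0.00798 to 0.0151 at 12 weeks). The gap between the ages was small, and the ratio rests on 3, 3, 13 and 0 Elovl3 reads in 68-week replicates 1 to 4. The share of all genes lower in this ratio is not given, so nothing is read from the separation. The ages overlapped for the other members, such as Srebf1 (1.26 to 51.4 at 68 weeks and 0.279 to 1.30 at 12 weeks) and Thrsp.

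With the Adipoq level in the model beside age, the age difference moved towards 0 in every member except Me1 (0.14 ± 0.15, SE). The log2 fold change was then -0.18 ± 0.81 (SE) for Elovl6, -0.42 ± 0.64 for Scd1, -0.63 ± 0.62 for Fasn, -0.40 ± 0.42 for Acaca, -0.21 ± 0.30 for Thrsp and -0.04 ± 0.12 for Srebf1, and 0.35 ± 1.3 for Elovl3. Of the 10 genes, 0 were called by edgeR, 0 reached an unadjusted p under 0.05, and DESeq2 was not run with this term. Adipoq did not overlap between the ages, so its level and age cannot be told apart in this fit, and the SE of most genes grew. Over all genes that fit called 0% lower and 0.00627% higher, so the loss of calls was general. With the Ucp1 level in the model, the log2 fold changes lay between those with age alone and those with Adipoq: -1.25 ± 0.50 (SE) for Elovl6, -1.28 ± 0.42 for Scd1, -1.34 ± 0.47 for Fasn, -1.11 ± 0.54 for Elovl3 and -0.29 ± 0.08 for Srebf1. There 0 of the 10 were called by edgeR, against 0.0439% of all genes called lower. At an unadjusted p under 0.05, 6 of the 10 were lower, for which no share of all genes is given.

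**Figure D2:**
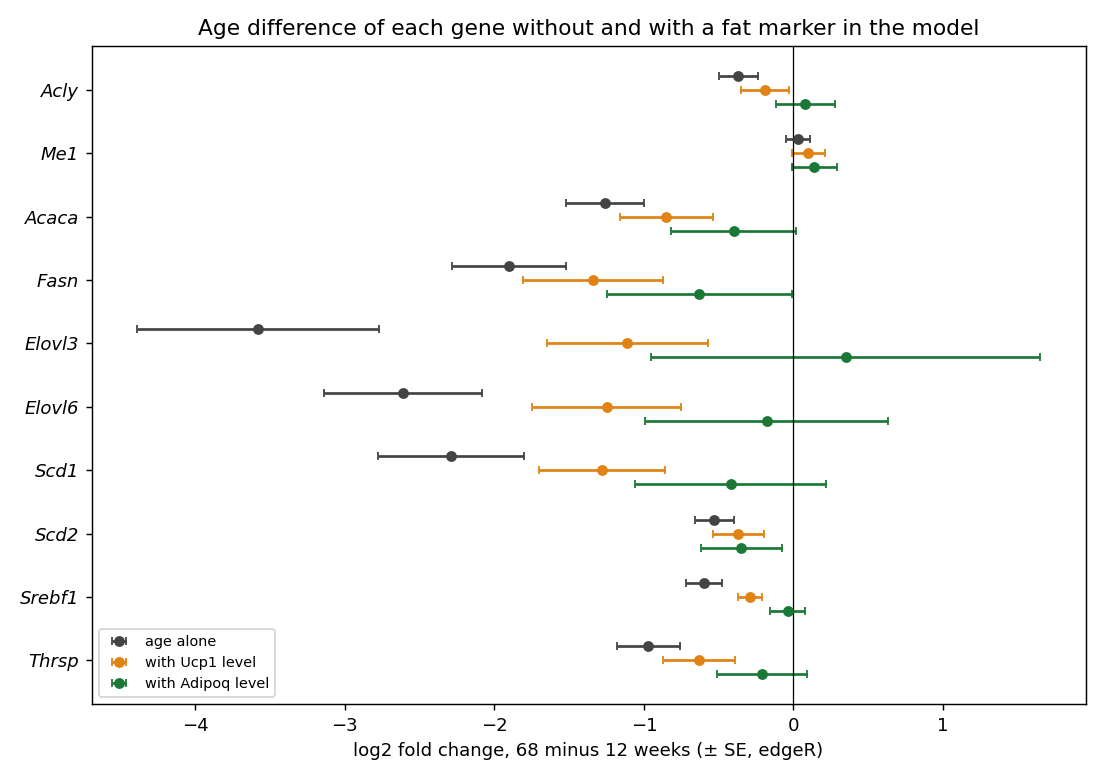
Log2 fold change, 68 minus 12 weeks, of each gene with its SE (bars) from edgeR, with age alone (grey), with the Ucp1 level (orange) or with the Adipoq level (green) as a further term. Elovl6 moves from -2.61 with age alone to -1.25 and -0.18, and Me1 stays near 0.

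Airway transcripts were also unevenly spread over the ages, being high in 1 library at 68 weeks and 3 at 12 weeks. With the airway and alveolar level in the model, the log2 fold change kept its sign in every member but Me1 (-0.06, against 0.03 with age alone). It was -1.67 ± 0.45 (SE) for Fasn, -1.16 ± 0.32 for Acaca and -0.53 ± 0.15 for Srebf1. Scd2 moved from -0.53 to -0.39 and Elovl3 from -3.58 to -3.98. There 0 of the 10 genes were called by edgeR, against 0.0376% of all genes called lower. At an unadjusted p under 0.05, 8 of the 10 were lower, for which no share of all genes is given. In the 4 libraries lowest in these markers, 3 at 68 weeks against 1 at 12 weeks, the log2 fold change was -2.40 for Fasn, -1.74 for Acaca and -0.84 for Scd2. The single 12-week library there is the one with the most Ucp1, Elovl3, Elovl6 and Scd1. In the 4 highest, 1 at 68 weeks against 3 at 12 weeks, the values were -1.30 for Fasn, -0.79 for Acaca and -0.11 for Scd2. With 1 library at an age, which is assumed to vary like the others, the numbers called by edgeR (5 of the 10 lower beside 0.139% of all genes in the lowest libraries, and 0, or 5 at an unadjusted p under 0.05, beside 0.00581% in the highest) say nothing of stability.

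Within each age, the level of each gene was set against the fat markers from library to library, and no relation passed the adjusted threshold by both Pearson's r and Spearman's rho. The genes were chosen with Adipoq and Ucp1 of the same libraries beside them, so these relations are a description and support nothing. Log2 CPM of each gene was set against Adipoq and Ucp1 over the 8 libraries after the mean of each age was removed, giving 20 relations. Each was tested in both directions by all 576 permutations of libraries within ages, for which 0.00174 is the smallest possible p. By Pearson's r, 12 relations reached an unadjusted p under 0.05 and 5 an adjusted p under 0.05; by Spearman's rho these were 10 and 0. Elovl6 and Adipoq had r = 0.78 (exact permutation p = 0.00347, adjusted 0.0417) and rho = 0.90 (p = 0.00521, adjusted 0.0521), and Acly and Adipoq r = 0.71 (p = 0.00868, adjusted 0.0417) and rho = 0.81 (p = 0.0139, adjusted 0.0521). With Ucp1, Srebf1 had r = 0.93 (exact permutation p = 0.0104, adjusted 0.0417) and rho = 0.86 (p = 0.0156, adjusted 0.0521), Elovl3 r = 0.84 (p = 0.00694, adjusted 0.0417) and rho = 0.86 (p = 0.00694, adjusted 0.0521), and Elovl6 r = 0.79 (p = 0.00694, adjusted 0.0417) and rho = 0.86 (p = 0.00868, adjusted 0.0521).

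Leaving out the 2 libraries farthest in the marker, 68-week replicates 4 and 2 for Adipoq and 4 and 3 for Ucp1, gave r of 0.89 and 0.69 for Elovl6 and Acly with Adipoq, and 0.72, 0.83 and 0.86 for Srebf1, Elovl3 and Elovl6 with Ucp1. Scd1 had r = 0.76 with Adipoq (exact permutation p = 0.0399, adjusted 0.0758; rho = 0.83, p = 0.0347, adjusted 0.0772), or 0.90 without the same 2 libraries. Me1 and Scd2 had the lowest r with Adipoq, 0.31 (exact permutation p = 0.556, adjusted 0.588; rho = 0.40, p = 0.448, adjusted 0.498) and 0.22 (p = 0.722, adjusted 0.722; rho = 0.29, p = 0.571, adjusted 0.589), and without those libraries 0.06 and 0.78. The sets of 4 libraries by airway transcripts held 1 library of 1 age each, too few for a value of their own. The number past an adjusted p of 0.05 was 8 without 12-week replicate 1 and 0 without any other single library.

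**Figure D3:**
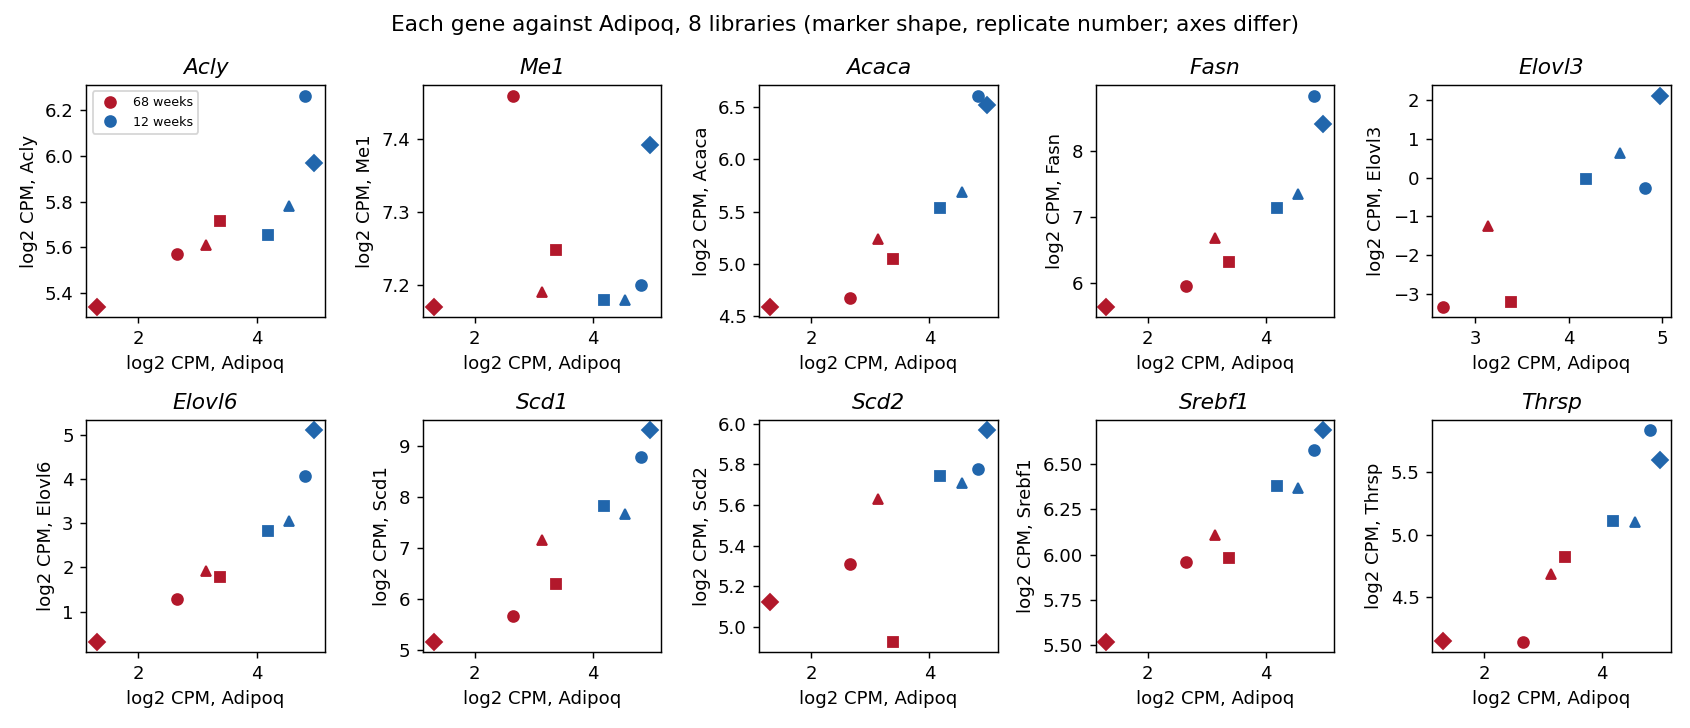
Log2 CPM of each gene against log2 CPM of Adipoq in 8 heart libraries, 68 weeks in red and 12 weeks in blue, with the replicate number as marker shape and axes that differ between panels. For Elovl6 both ages lie along 1 rising band, from 2.47 CPM of Adipoq and 1.25 CPM of Elovl6 to 31.4 and 34.2 CPM, while Me1 shows no such band. The library with no Elovl3 read, 68-week replicate 4, is not drawn in the Elovl3 panel.

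Other genes of lipid synthesis were for the most part not called. Of 72 genes in 7 lists taken from textbook pathways, 69 were tested. By edgeR 2 were lower and 1 higher, beside 1.22% and 1.61% of all genes. By DESeq2 8 were lower and 2 higher, beside 2.97% and 3.63% of all genes. At an unadjusted p under 0.05 by edgeR, 17 were lower and 5 higher, for which no share of all genes is given. The median log2 fold change of the 69 was -0.05. Slc25a1, the mitochondrial citrate carrier that exports the substrate of Acly, was lower, at 7.91, 7.46, 9.80 and 6.07 CPM at 68 weeks against 19.3, 11.6, 11.3 and 14.9 CPM at 12 weeks (log2 fold change -0.87 ± 0.19, SE, adjusted p = 0.0468, edgeR). The groups lay apart, but the call was lost without any single library other than 68-week replicate 3, and with library size alone. Transketolase (Tkt), of the NADPH-yielding pentose pathway, had a log2 fold change of -0.98 ± 0.24 (SE, adjusted p = 0.0646, edgeR). Among 9 genes of acetyl-CoA and NADPH supply, with a median of -0.18, 1 was thus lower and 0 were higher by edgeR. DESeq2 called 2 lower and 0 higher (5 lower and 1 higher at an unadjusted p under 0.05 by edgeR). In the 6 genes of carboxylation and mitochondrial fatty acid synthesis, with a median of -0.08, 0 were called by edgeR and 1 lower by DESeq2 (2 lower at an unadjusted p under 0.05 by edgeR), the smallest p belonging to the mitochondrial reductase Mecr (-0.31 ± 0.077, SE, adjusted p = 0.0666, edgeR) and to malonyl-CoA decarboxylase, Mlycd (-0.24 ± 0.081, adjusted p = 0.152).

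Of 9 tested genes of the elongation cycle, 0 were called by edgeR and 2 lower by DESeq2 (2 lower and 1 higher at an unadjusted p under 0.05 by edgeR), with a median of -0.09. The reductase Hsd17b12 (-0.33 ± 0.088, SE, adjusted p = 0.0781, edgeR) and the dehydratase Hacd2 (-0.65 ± 0.18, adjusted p = 0.0959) act in every round of elongation. Fads3, a fatty acid desaturase family member, was the 1 gene higher at 68 weeks, at 96.9, 92.6, 95.9 and 108 CPM against 69.0, 73.6, 71.4 and 73.0 CPM at 12 weeks. The groups lay apart and the log2 fold change was 0.45 ± 0.054 (SE, adjusted p = 0.0043, edgeR), called also with any single library left out and not with Adipoq, Ucp1 or airway levels in the model. Cyb5r3, which passes electrons to the desaturases through cytochrome b5, had 0.15 ± 0.041 (SE, adjusted p = 0.0938, edgeR). It was called higher by DESeq2 (adjusted p = 0.0281). Among the 7 desaturation genes tested, with a median of 0.15, 1 was higher by edgeR and 2 by DESeq2 (3 higher at an unadjusted p under 0.05 by edgeR), and 0 were lower by edgeR or DESeq2 (0 at an unadjusted p under 0.05).

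Of 13 other lipogenic regulators, 0 were called by edgeR and 1 lower by DESeq2 (3 lower at an unadjusted p under 0.05 by edgeR), with a median of -0.01. Mlxipl, which encodes the glucose-responsive factor ChREBP, had -0.43 ± 0.098 (SE, adjusted p = 0.0534, edgeR) and Insig1, which retains SREBP in the endoplasmic reticulum, -0.37 ± 0.11 (adjusted p = 0.122). Of 7 genes of triglyceride assembly, 0 were called by edgeR and 1 lower by DESeq2 (3 lower at an unadjusted p under 0.05 by edgeR), with a median of -0.17. The acyltransferases Agpat2 (-0.60 ± 0.16, SE, adjusted p = 0.0797, edgeR) and Gpat4 (-0.16 ± 0.051, adjusted p = 0.124) had the smallest p. Of 18 genes of sterol synthesis and uptake, with a median of -0.03, Hmgcs1, an early enzyme of the pathway, was lower, at 53.3 ± 1.58 CPM at 68 weeks and 64.8 ± 3.62 CPM at 12 weeks (log2 fold change -0.28 ± 0.051, SE, adjusted p = 0.0250, edgeR), a call lost without 68-week replicate 1, 2 or 4 or 12-week replicate 1.

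**Figure D4:**
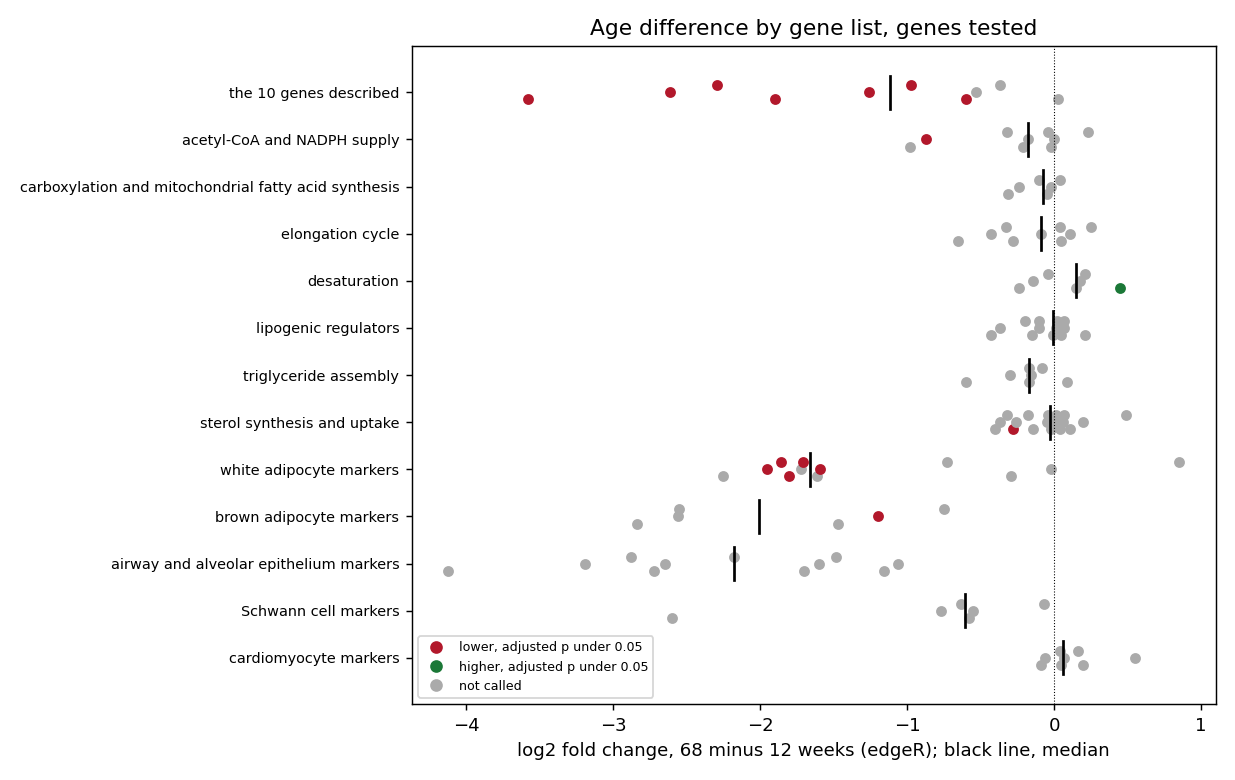
Log2 fold change, 68 minus 12 weeks, of each gene tested (points) by list, with the list median as a black line. Red points are lower and green points higher at an adjusted p under 0.05 by edgeR, and grey points were not called. Medians were -1.12 for the 10 genes, -1.66 and -2.01 for white and brown fat cell markers, and between -0.18 and 0.15 for the 7 lists of other lipid synthesis genes.

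Over the 8 libraries, the genes most like the 10 were ranked by Pearson's r between log2 CPM and the mean of the 10 standardized profiles. Among 12501 other named genes averaging 0 or more on the log2 CPM scale, the highest were Dusp4 (r = 0.990), Tusc5 (0.987), Chdh (0.987), Adig (0.986), Zfp608 (0.985), Cidec (0.983), Ebf2 (0.983), Cebpa (0.982), Traf4 (0.982) and Ntrk2 (0.981). Each of these had a negative fitted log2 fold change, from -0.47 (Ebf2) to -1.95 (Cidec). Adig and Cidec are white fat cell markers of the list above, Adipoq ranked 69 (r = 0.944) and Ucp1 209 (r = 0.889). With 2 ages in the libraries, r is high for any gene that differs between them in the same direction. Of the 10 genes themselves, Elovl6 was nearest to the mean (r = 0.991) and Me1 farthest (r = 0.131).

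In H3K27me3 CUT&RUN, 1 of the 10 genes was linked by the authors to a listed region. Scd1 had 1 region in the 12-week list, of 363 bases, at 44395472 to 44395834 on chromosome 19 as the deposited list gives it. The authors' enrichment score of the region was 3.72, which ranked 994 among 1164 regions of that age, whose median was 4.50. In the 68-week list 0 of the 10 genes had a region. Of all genes tested in RNA, 3.46% were linked to a region at 68 weeks and 1.44% at 12 weeks. Each age has 1 list, whose region names mark the regions as unique to that age, with no value per library, so the lists carry no replicate error and their difference was not tested. The build of their coordinates was not established, since 17.8% of 736 links at 12 weeks fell on the span of the linked gene in the count tables, and the position of the region within or beside Scd1 is not read here. Of the 72 other lipid synthesis genes, 4 were linked at 68 weeks (Elovl2, Elovl7, Gpam and Mlxipl) and 0 at 12 weeks.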

How the data were processed

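Per the file headers, RNA was deposited as raw counts for each gene, and the 8 tables of single libraries held the same values as the series table. Trimmomatic 0.36, STAR 2.5.2b, featureCounts of Subread 1.5.2 and mm10 are named, without roles, in the submitters' processing notes. The strand and multi-mapping settings of the counting were not stated. The deposited region lists carry the authors' score per region, on no stated scale.

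All 15947 genes passing filterByExpr, the 10 genes among them, were fitted with edgeR 4.0.16 in R 4.3.3 (TMM, quasi-likelihood test, age alone), with Benjamini-Hochberg adjustment over all of them. SE was approximated as the absolute log2 fold change divided by the root of F. Log2 CPM used a prior count of 2. DESeq2 1.42.0, other normalizations, no filter, covariates, a replicate block and leaving out each library were alternatives; the split by airway transcripts was chosen after seeing the data. No library was a repeat of another of its age (lowest chi-square per degree of freedom between their counts 17.4). Tests were tried on simulated data. The genes and lists were chosen with earlier results of these data known. Named were the 10 genes, Adipoq, Ucp1, every called listed gene, the 2 of smallest p in each pathway list, and the 10 most similar genes. A gene that this rule names is not reported here.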

Additional observations from a re-analysis of the deposited data

Results flagged for a closer look

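Among 24 groups of 4 values (the 10 genes, Adipoq and Ucp1 at each age), 1 had a sample far from the others: Me1 in 12-week replicate 4, at 168 CPM against 145 to 147 CPM in the other 12-week libraries, with a gap of 0.913 of the range. Chance flags about 1 in 20 such groups. The same library held the most Ucp1, at 368 CPM, and the part of brown fat in the Me1 value was not tested.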

How the results depend on the processing

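The number of the 10 genes called lower was 7 with age alone, beside 1.22% of all genes. It was 8 without a filter on low counts (0.882% of all genes) and 8 by DESeq2 (2.97%). With RLE size factors it was 6 (1.1%), and with library size alone 7 (1.56%). It was 0 with the Adipoq (0%), Ucp1 (0.0439%) or airway level (0.0376%) in the model. With single libraries left out it was 0 to 6, beside the shares given above. Other lipid synthesis genes called lower, 2 with age alone, numbered 5 without a filter on low counts, 8 by DESeq2, 0 with each of the 3 levels in the model, and 1 and 0 in the libraries lowest and highest in airway transcripts (0 to 2 with single libraries left out). Those called higher, 1 with age alone, numbered 2 by DESeq2, 0 with each level in the model and 0 in the libraries lowest and in those highest in airway transcripts. Marker genes called lower, 6 with age alone, numbered 13 without a filter, 12 by DESeq2, 0 with Adipoq or Ucp1 and 1 with the airway level in the model, 0 in the libraries highest in airway transcripts, and 1 to 15 with single libraries left out, and those called higher, 0 with age alone, numbered 1 without a filter and 1 by DESeq2. The sets by airway transcripts leave 1 library at an age, so their counts say nothing of stability. The cause of the other shifts was not tested. Relations with the fat markers past an adjusted p of 0.05, 5 over 8 libraries, numbered 0 to 8 with 1 left out. The sign turned for Acly (0.08), Elovl3 (0.35), Acacb (0.02), Insig1 (0.11) and Ucp1 (2.4) with Adipoq in the model, and for Me1 with library size alone (-0.02), with the airway level (-0.06), without 68-week replicate 1 (-0.04, and up to 0.09 without other single libraries) and in the libraries lowest in airway transcripts (-0.09). With library size alone, the median log2 fold change over all genes moved to -0.067. Replicate numbers did not pair the libraries: deviations of same-numbered libraries correlated at -0.23 to 0.32, and 1 of 4 was over 0.1 or best with its own number. With the replicate block, 0 of the 10 genes (0.301% of all genes), 0 other lipid synthesis genes and 2 marker genes were called lower, and 1 other lipid synthesis gene higher.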
